A study of Zea mays with 11 samples.

Results

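The genes described here are the microRNA (miRNA) gene rows of a maize anther count table that lie outside the families MIR159, MIR398, MIR408, MIR528, MIR2275 and MIR2118. They were chosen by name alone, as every row whose identifier begins with zma-MIR except those of the 6 families. This gave 128 rows in 22 families, of 154 miRNA rows and 44474 rows in all. The families held 1 to 17 rows each.

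The libraries came from Zea mays anthers collected at meiotic prophase I. There were 3 libraries of the pam1 mutant and 3 of the wild-type inbred A344. PAM1 is an RNA recognition motif protein, and RNA-seq was used to compare the anther transcriptomes of mutant and wild type. The labels give neither the pam1 allele nor the genetic background of the mutant, so loss of PAM1 and other differences between the lines cannot be told apart. They also do not say whether replicates were separate plants, and p-values then measure only the spread between these libraries. Library totals were 2002784 to 2595247 counts in pam1 and 1918457 to 2420973 in A344. The log2 values of pam1 replicate 3 correlated at 0.90 to 0.91 with the A344 libraries, and those of pam1 replicates 1 and 2 at 0.87 to 0.89 (across genes, which are not independent replicates).

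A plant miRNA gene is transcribed by RNA polymerase II into a capped primary transcript with a hairpin. A Dicer-like enzyme cuts the hairpin in the nucleus, and the short mature strand guides an Argonaute protein to mRNAs that match it closely. Many of these families are old in land plants and act on transcription factors of development, on auxin signalling or on nutrient uptake, while a few act on the miRNA pathway itself. The libraries were made from total RNA with a directional kit, so the counts are reads at miRNA genes and do not measure mature miRNA. In whole anthers, fewer cells of a type and less RNA per cell cannot be told apart.

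None of the 22 families passed the test of a difference between pam1 and A344, and signal was sparse throughout. The 128 rows together held 352 counts over the 6 libraries, of which 98 fell on MIR167g alone. There were 56 rows with no count, 38 with 1 or 2, 30 with 3 to 9 and 4 with at least 10. With at least 10 pooled counts, 9 families held 84.9% of the counts. A single family, MIR167, had enough counts for edgeR's default filter, and 0 families were called by edgeR, with 0 at an unadjusted p under 0.05. Of all rows tested, 14.8% were called. With at least 1 CPM (counts per 1000000 of the library total) in 3 libraries, 7 families were tested and 0 were called by edgeR. Of all rows tested that way, 13.8% were called. Of the 7 families, 0 had an unadjusted p under 0.05. With no filter on low counts 19 families were tested and 0 were called by edgeR, while 11.1% of all rows were called. Of the 19 families, 1 (MIR168) had an unadjusted p under 0.05. The share of all rows at an unadjusted p under 0.05 was not computed. DESeq2 gave an adjusted p for 9 of 19 families and called 0, while it called 7.62% of all rows it gave one for. Of the 19 families, 0 had an unadjusted p under 0.05 by DESeq2. With limma voom MIR167 alone passed the filter and was not called, nor was its unadjusted p under 0.05.

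Taken as a sum, the rows had higher CPM in the mutant. The sum was 31.9, 28.9 and 30.5 CPM in pam1 replicates 1 to 3, against 24.8, 21.4 and 22.0 CPM in A344 replicates 1 to 3. Every pam1 library lay above every A344 library, and the ratio of pooled counts was 1.33 (201 counts in pam1 and 151 in A344; 95% interval 1.07 to 1.65). It was 1.32 without pam1 replicate 3, the mutant library nearest to A344. Without MIR167g the ratio was 1.46 (1.13 to 1.90), from 151 counts in pam1 and 103 in A344. Sparse rows of the whole table leaned the same way. At the depth of the larger families (10 to 112 counts, 9407 rows), the median ratio was 1.27 and 63.6% had a ratio above 1. Over the 6687 rows with 3 to 9 counts these values were 1.99 and 68.6%. A median over rows is not the same measure as the ratio of a sum. The 9 families with at least 10 counts had a median ratio of 1.49, and 7 of the 9 had a ratio above 1. The 6 miRNA families set aside summed to 97.3, 91.7 and 77.4 CPM in pam1 anthers and 45.8, 17.2 and 38.8 CPM in A344 anthers, a ratio of 2.54 (2.18 to 2.97). The 95% intervals of these ratios cover counting error only and leave out the spread between libraries. The difference between these ratios was not tested.

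More rows were detected in the mutant as well. At least 1 count was found in 37, 38 and 28 of the 128 rows in pam1 replicates 1 to 3 and in 23, 24 and 24 rows in A344 replicates 1 to 3, with no overlap between the groups. At the depth of the smallest library the expected share was 24.2 ± 3.20% of rows in pam1 anthers and 17.1 ± 1.56% in A344 anthers (SD, n = 3 each). The same measure over the whole table was 67.7 ± 0.951% in pam1 anthers and 61.7 ± 2.70% in A344 anthers. Of the 68 miRNA rows with 1 to 9 counts, 30 were counted in pam1 alone (44.1%) and 7 in A344 alone (10.3%). The shares over all 11800 rows of the table with 1 to 9 counts were 35.5% and 13.9%. Depth was not matched within this band, as 30 of the 68 miRNA rows but 6687 of the 11800 had 3 to 9 counts. The difference between these shares was not tested.

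**Figure D1:**
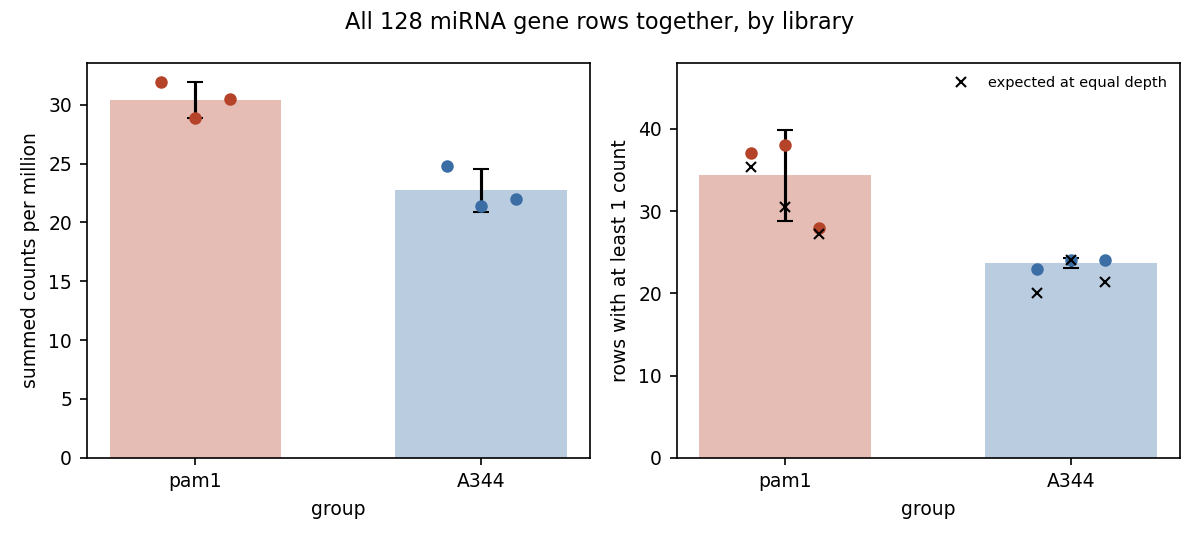
Sum of the CPM of all 128 rows (left) and number of rows with at least 1 count (right) in each library, with pam1 left and A344 right. Dots are libraries, bars are means, error bars are SD (n = 3 each) and crosses are the numbers expected at the depth of the smallest library. In both panels each pam1 library lies above each A344 library.

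Among the families of auxin signalling, MIR167 was the one with the most counts. Its miRNA targets mRNAs of auxin response factors, and in Arabidopsis it is needed for normal anther and ovule growth. The pooled counts were 19, 24 and 15 in the pam1 libraries (replicates 1 to 3) and 23, 14 and 17 in the A344 libraries. The groups overlapped almost fully, at 8.69 ± 1.04 CPM in pam1 anthers and 8.10 ± 1.22 CPM in A344 anthers (SD, n = 3 each). The log2 fold change was 0.08 ± 0.27 SE with a 95% interval of −0.52 to 0.67 (edgeR adjusted p = 0.895). Changes within that interval remain possible at this depth.

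MIR167g carried 87.5% of the family's counts. It had 15, 21 and 14 counts in pam1 and 22, 10 and 16 in A344, where replicates 1 and 2 were the highest and lowest of the 6 libraries. Its log2 fold change was 0.04 ± 0.30 SE, with a 95% interval of −0.61 to 0.69 (edgeR adjusted p = 0.956). It was the 1 row of the 128 that passed the default filter, where 14.9% of tested rows were called. The sign of its log2 value turned without pam1 replicate 2 (−0.02) or A344 replicate 2 (−0.12). The row before it in the table is MIR167a, with 3 counts in pam1 and 1 in A344. In RefSeq 1 other gene lies between this pair.

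The other auxin families had few counts. MIR160, whose miRNA also targets auxin response factors, had 3 counts in pam1 and 1 in A344, and MIR393, whose miRNA targets auxin receptors of the TIR1 type, had 2 and 0. MIR390, whose miRNA starts the production of small RNAs from TAS3 transcripts, had 4 counts in pam1 and 5 in A344, all from MIR390a. MIR164, whose miRNA targets NAC transcription factors of organ boundaries, had 6 counts in pam1 and 1 in A344 (ratio 5.98, 95% interval 0.725 to 275). These totals are too small to show a difference, and both groups were at or under the floor of 3 counts for MIR160 and MIR393.

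MIR399 was the family with the second highest count. Its miRNA rises when phosphate is short and targets the mRNA of PHO2, a ubiquitin-conjugating enzyme that limits phosphate uptake. The pooled counts were 9, 7 and 8 in pam1 and 8, 4 and 4 in A344. In CPM, pam1 replicate 2 (2.70) lay under A344 replicate 1 (3.30) and the groups overlapped, with a ratio of 1.49 (0.762 to 3.01). Within each replicate number the ratio was above 1, at 1.34, 1.29 and 2.27 for numbers 1 to 3. The rows of the family differed in their counts, a difference that was not tested. MIR399d had 6, 6 and 7 counts in pam1 and 4, 1 and 2 in A344, while MIR399b had 1, 1 and 0 in pam1 and 4, 1 and 1 in A344. Without MIR399d the family had 5 counts in pam1 against 9 in A344, for a ratio of 0.554.

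For MIR399d every pam1 library lay above every A344 library, at 2.92 ± 0.592 CPM in pam1 anthers and 1.02 ± 0.578 CPM in A344 anthers (SD, n = 3 each). Its ratio was 2.70 (1.09 to 7.61, counting error only). It did not pass the test: with at least 1 CPM in 3 libraries its log2 fold change was 1.36 (edgeR, unadjusted p = 0.0363 and adjusted p = 0.154). In the authors' deposited table its log2 value was −1.44, as A344 over pam1, and the adjusted p was 0.524. The rows directly before and after it, Zm00001d043211 and Zm00001d043214, had 15 and 0 counts in pam1 and 24 and 1 in A344.

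MIR395 is the family of sulphate supply. Its miRNA targets mRNAs of ATP sulfurylases and of a sulphate transporter and rises when sulphur is short. It had 6, 2 and 2 counts in pam1 and 1, 0 and 1 in A344. Every pam1 library was above every A344 library, with a ratio of 4.98 (1.06 to 46.8, counting error only). The ratio rested in part on pam1 replicate 1 and was 2.87 without it. With no filter on low counts the family's log2 fold change was 2.09 (edgeR, unadjusted p = 0.0501 and adjusted p = 0.245). The family was not called in that fit. MIR395l, MIR395m and MIR395c tied as top row with 3 counts each. Without MIR395l, which held 1 of the family's 2 A344 counts, 8 counts in pam1 and 1 in A344 were left, a ratio of 7.97. All 13 of its rows are next to another MIR395 row in the table. The run MIR395k, MIR395l, MIR395m and MIR395c had 7 counts in pam1 and 2 in A344, and the run MIR395n, MIR395o and MIR395p had 3 and 0. The other 2 runs had no count in any library. Hairpins in such a run may lie on 1 primary transcript, so they are not separate observations.

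The remaining families linked to nutrients or stress did not separate the groups. MIR169, whose miRNA targets NF-YA subunits of a CCAAT-binding factor, had 8, 4 and 5 counts in pam1 and 4, 7 and 4 in A344 (ratio 1.13, 0.531 to 2.43, and 0.862 without pam1 replicate 1). It is the family with the most rows, 17, of which 8 had a count. Its top row, MIR169o, had 3, 0 and 2 counts in pam1 and 4, 3 and 2 in A344. The rest of the family leaned the other way, with 12 counts in pam1 and 6 in A344. MIR397, whose miRNA targets laccase mRNAs and responds to copper, had 0, 2 and 4 counts in pam1 and 1, 1 and 1 in A344. MIR827, which acts on phosphate transport genes in rice, had no count in any library.

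**Figure D2:**
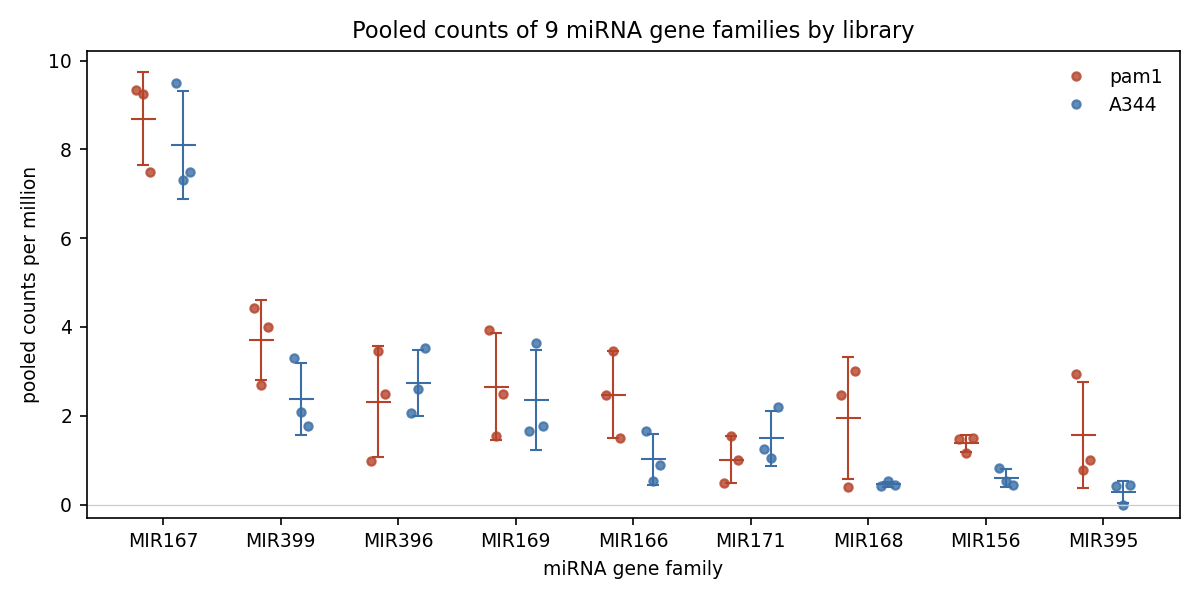
Pooled CPM (vertical axis) of the 9 families with at least 10 counts, with pam1 left of A344 in each pair. Dots are libraries, and bars are means with SD (n = 3 each). MIR156 and MIR395 show no overlap between the groups, and for MIR168 a single pam1 library lies as low as the A344 libraries.

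The families that act on developmental transcription factors differed in their ratios, with wide intervals. MIR166 targets mRNAs of class III homeodomain leucine zipper factors, among them rolled leaf1 of maize, which set the upper side of leaves. It had 5, 9 and 3 counts in pam1 and 4, 1 and 2 in A344. In CPM, pam1 replicate 3 (1.50) lay just under A344 replicate 1 (1.65), so that the groups overlapped. The ratio was 2.42 (0.954 to 6.90), and 1.57 without the top row, MIR166m. Within each replicate number it was above 1, at 1.49, 6.65 and 1.70 for numbers 1 to 3.

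Within MIR166, some rows were counted in a single group. MIR166m had 2, 2 and 2 counts in pam1 and none in A344, and the 95% interval of its ratio (counting error only) began at 1.17. MIR166c had 1, 1 and 1 counts in pam1 and none in A344. MIR166a had none in pam1 and 1, 1 and 2 in A344 (95% interval of the ratio 0 to 1.51, which includes no difference). How reads of near-identical hairpins were divided among rows is not known, so single rows of a family are uncertain where their sequences are alike. MIR166m lies next to MIR166k in the table, and the pair had 8 counts in pam1 and 1 in A344. With no filter, 72 rows were tested and 0 were called by edgeR, while 11% of all rows were called. MIR166m, MIR171d and MIR399d had unadjusted p-values of 0.0209, 0.0328 and 0.0457 in that edgeR fit, and adjusted p-values of 0.136, 0.187 and 0.231. How many of all rows had unadjusted p-values this low was not computed.

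MIR156 targets mRNAs of SBP transcription factors and holds plants in the juvenile phase, as in the maize mutant Corngrass1. It had 3, 3 and 3 counts in pam1 and 2, 1 and 1 in A344. At 1.38 ± 0.191 CPM in pam1 anthers and 0.596 ± 0.203 CPM in A344 anthers (SD, n = 3 each) the groups did not overlap, and the ratio was 2.24 (0.626 to 9.96). The counts were spread over 7 of its 11 rows, with at most 3 on a row. MIR156j, for example, had 1, 1 and 1 counts in pam1 and none in A344. MIR529, whose miRNA also targets SBP genes, had no count.

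MIR172 acts after MIR156 in the same change of phase and targets AP2 factors such as glossy15. It had 1, 2 and 0 counts in pam1 and 2, 1 and 3 in A344, and its ratio was 0.498 (0.0806 to 2.33). MIR172c had 0, 1 and 0 counts in pam1 and 1, 1 and 3 in A344. In CPM every pam1 library was below every A344 library for it. In counts pam1 replicate 2 and A344 replicates 1 and 2 were equal, at 1 each, so their order in CPM rests on library totals. MIR172e, the gene of the maize mutant tasselseed4, had 1 count in each group.

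For MIR396 and MIR171 the ratio was below 1, with groups that overlapped. MIR396 targets growth-regulating factors, and had 2, 9 and 5 counts in pam1 and 5, 5 and 8 in A344 (ratio 0.886, 0.423 to 1.84). The ratio turned above 1 without pam1 replicate 1 (1.12) or A344 replicate 3 (1.05). Its top row MIR396c had 0, 3 and 5 counts in pam1 and 2, 1 and 4 in A344, and the neighbouring pair MIR396a and MIR396e had 5 counts in pam1 and 6 in A344. MIR171 targets GRAS factors of the HAIRY MERISTEM type, and had 1, 4 and 2 counts in pam1 and 3, 2 and 5 in A344 (ratio 0.698, 0.225 to 2.03). Its top row MIR171d had none in pam1 and 1, 1 and 3 in A344 (95% interval of the ratio 0 to 1.09, which includes no difference). Without MIR171d the family had a ratio of 1.40. MIR319, whose miRNA targets TCP factors, had 2 counts in pam1 and 0 in A344. MIR394, whose miRNA targets an F-box gene in Arabidopsis, had 3 in pam1 and 5 in A344.

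**Figure D3:**
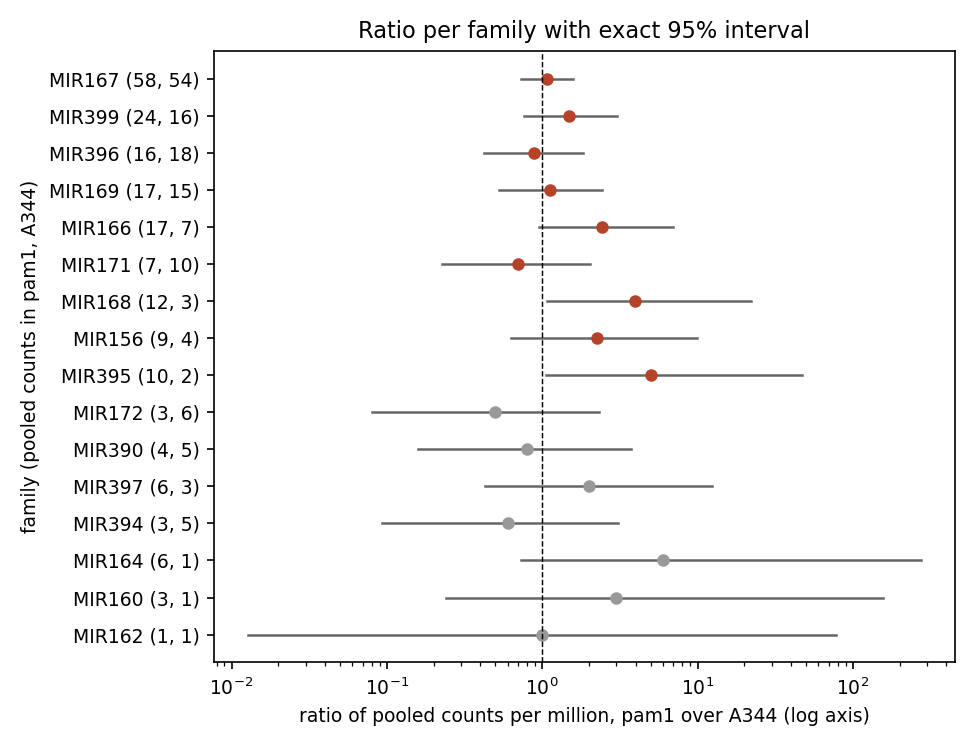
Ratio of pooled CPM, pam1 over A344, on a log axis for the 16 families counted in both groups, with exact 95% intervals that cover counting error. Red marks families with at least 10 counts and grey the others. The intervals of MIR168 and MIR395 lie above 1, and that of MIR167 is the narrowest. Among rows of the whole table at the depth of the red families, 63.6% had a ratio above 1. The share of those rows with an interval above 1 was not computed.

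A pair of families acts on the miRNA pathway itself. MIR168 targets the mRNA of ARGONAUTE1, the protein that carries most plant miRNAs, and MIR162 that of DICER-LIKE1, which cuts the hairpins. MIR168 had 5, 1 and 6 counts in pam1 and 1, 1 and 1 in A344. It stood at 1.95 ± 1.38 CPM in pam1 anthers and 0.458 ± 0.0562 CPM in A344 anthers (SD, n = 3 each). The groups overlapped because pam1 replicate 2 had 1 count, as had each A344 library. Its 0.385 CPM differs from the 0.413 to 0.521 CPM in A344 only through library totals, from which the A344 SD also comes.

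The ratio of MIR168 was 3.99 (1.08 to 22.0, counting error only). Leaving out 1 library gave 2.85 (without pam1 replicate 3) to 6.002 (without pam1 replicate 2), and leaving out the top row, MIR168a, gave 2.49. With no filter on low counts its log2 fold change was 1.85 (edgeR, unadjusted p = 0.0485 and adjusted p = 0.239). Both of its rows leaned the same way, with 7 counts in pam1 and 1 in A344 for MIR168a and 5 and 2 for MIR168b. MIR162 had 1 count in each group.

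Of the 9 families with at least 10 counts, MIR156 and MIR395 (2 families, 22.2%) had all pam1 values higher than all A344 values, and 0 showed the reverse. This share was close to that of the whole table, where the pam1 libraries all lay above the A344 libraries in 21% of the rows with 10 to 112 counts, and all below in 8.25%. With each pam1 library set against the A344 library of the same replicate number, MIR399, MIR166, MIR156 and MIR395 (4 of 9, 44.4%) were higher in pam1 in each pair and 0 were lower in each. Of the rows of that depth in the whole table, 33.2% were higher in each pair and 13.2% lower. The labels do not give these pairs. Of the 30 miRNA rows with 3 to 9 counts, 4 had every pam1 library above in CPM (MIR166m, MIR166c, MIR169i and MIR156j) and 3 had every pam1 library below (MIR172c, MIR171d and MIR166a). The shares over all rows of that depth were 12% and 2.75%. For MIR172c the order rests on library totals, as pam1 replicate 2 and A344 replicates 1 and 2 had 1 count each. The median ratio of these 30 rows was 1.99, as it was for the 6687 rows of the table with 3 to 9 counts. At so few counts a ratio can take few values, so equal medians say little. The ratio was above 1 in 60% of the 30 rows and in 68.6% of the 6687.

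**Figure D4:**
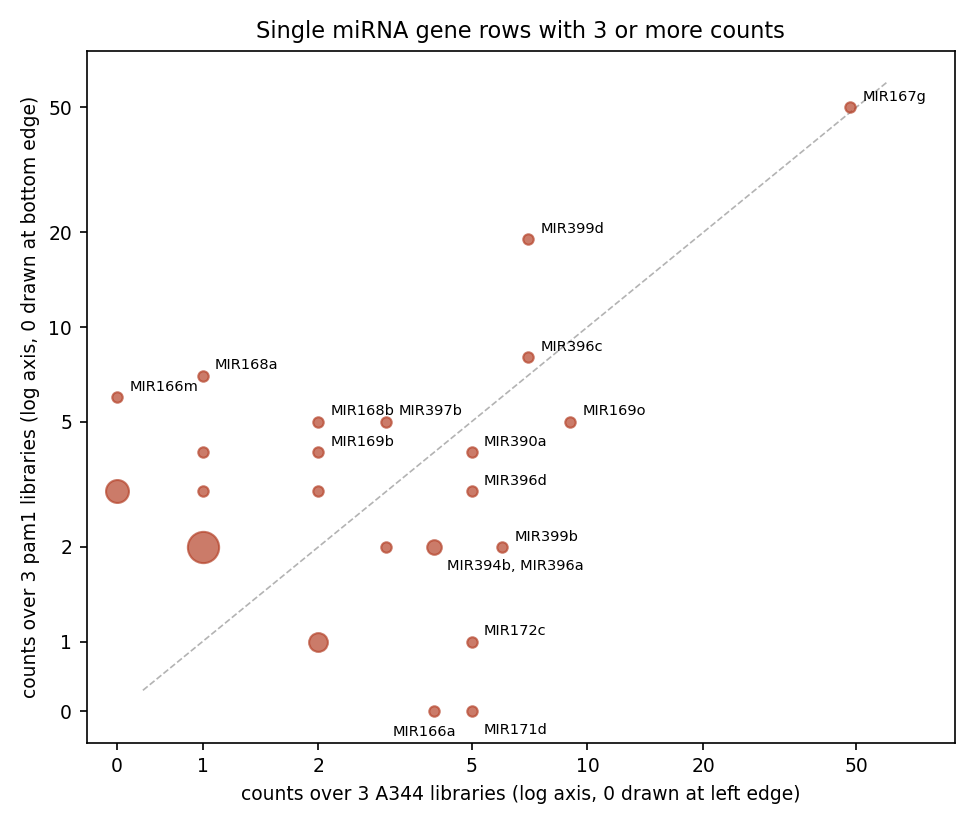
Counts of each miRNA row with at least 3 counts, over the 3 pam1 libraries (vertical) and over the 3 A344 libraries (horizontal), on log axes with 0 at the edge. Larger dots hold several rows, and the dashed line marks equal counts. MIR167g lies on the line, MIR399d, MIR168a and MIR166m lie above it, and MIR172c, MIR171d and MIR166a lie below it.

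MIR482, MIR529 and MIR827 had no count in any library, which allows up to 0.227 CPM over the 6 libraries by a floor of 3 counts. MIR482 miRNAs target disease resistance genes in other plants. MIR1432 had 1 count, in pam1. In all, 32 of the 128 rows stand in 13 runs of neighbouring miRNA rows of their own family, and 6 of these runs (of MIR395, MIR169, MIR396 and MIR399 rows) had no count. The authors' deposited table gives a p-value for 72 of the 128 rows, of which 0 were under 0.05, and an adjusted p-value for 4 (MIR167g, MIR399d, MIR396c and MIR169o), of which 0 were under 0.05. Its values come from the same counts and are no independent check.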

How the data were processed

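Total RNA from prophase I anthers was sequenced in 3 pam1 and 3 A344 libraries, grouped by the sample titles. The deposited count table holds raw counts per row, not normalized. The authors' deposited comparison table holds, per the file headers, a mean signal, log2 fold changes with standard errors, a Wald score, and p-values. Among rows called both there and here, 1675 of 1675 had the opposite sign, so its log2 values are A344 over pam1. The submitters' processing notes name STAR, DESeq2, MACS2 and Bowtie2 2.4.5, without roles. Not given in the sources used here are the counting program, its strand setting, how it handled multiply mapping reads, and any removal of ribosomal RNA or selection of polyadenylated RNA.

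All 128 rows were matched by name to symbols of RefSeq (assembly Zm-B73-REFERENCE-NAM-5.0, from which names and neighbours alone were taken). Families were the numbers in the row names. The family sums replaced the single rows in the whole table, which was tested with edgeR 4.0.16 (R 4.3.3; two-sided quasi-likelihood test after TMM scaling and filterByExpr), as pam1 minus A344, at a p under 0.05 after Benjamini-Hochberg adjustment over all tested rows. A second fit kept single rows. The edgeR log2 values include its small prior count, while their SEs come from the coefficient without it. These SEs are therefore printed for MIR167 and MIR167g alone. The edgeR fit was tested on simulated single rows, with changes placed only in rows averaging at least 10 counts per library. Family sums and changes in sparser rows were not simulated, so power for most families is not known. The interval of the ratios was tested on simulated counts with counting error alone. That test cannot show how the interval behaves with spread between libraries. Alternatives were another scaling or filter, DESeq2 1.42.0, limma 3.58.1 voom, a replicate block and leaving out each library. Ratios of pooled counts carry exact conditional 95% intervals, which like the floor of 3 counts cover counting error only, and the counts are not independent molecules. Families and rows with at least 10 counts were named in full. Of the lists fixed by symbol (miRNA pathway, miRNA targets, anther wall, meiocyte, pollen and green tissue), 0 genes could be matched to rows, so the tissue label was not checked against markers. Deviations from the group means correlated at 0.13, 0.12 and 0.13 for replicate numbers 1 to 3 and at −0.15 to 0.02 between different numbers. Deviations cancel within each group, so positive values for matched numbers bring negative ones between others. On this weak ground the numbers were treated as possible pairs, from the data and not from the labels. The main fits and ratios are unpaired, and the block is an alternative. The families and lists were chosen with earlier results of these data known. Other steps ran in Python 3.11.15 with pandas 2.3.3, scipy 1.17.1 and numpy 2.4.6, and plots in matplotlib 3.10.9. The RIP peaks were not used here.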

Additional observations from a re-analysis of the deposited data

How the results depend on the processing

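The number of changed families and of changed rows was 0 under all alternatives run by edgeR, DESeq2 and limma voom, with the replicate block included (0 and 0). Most fits tested a single family and a single row, so these values say little of stability. Leaving out 1 library gave ratios of 1.29 to 1.39 for the sum of all rows, a median family ratio of 1.31 to 1.89 and a ratio of detected rows of 1.37 to 1.58. It also gave a log2 fold change of 0.01 to 0.19 for MIR167 and of −0.12 to 0.24 for MIR167g, with the sign turned without pam1 replicate 2 (−0.02) and without A344 replicate 2 (−0.12). Without its top row, MIR167g, the sum had a ratio of 1.46. Without its top row the ratio was 1.33 for MIR167, 0.554 for MIR399, 0.725 for MIR396, 1.99 for MIR169 and 1.57 for MIR166. It was 1.40 for MIR171, 2.49 for MIR168 and 1.49 for MIR156. For MIR395 it was 7.97 without MIR395l, which ties with MIR395m and MIR395c. A count over pairs of one replicate number, chosen after seeing the data, gave 4 families higher in pam1 throughout, against 2 over all libraries. MIR169 had a ratio of 0.862 without pam1 replicate 1 and of 0.976 without A344 replicate 1, and MIR396 one of 1.12 without pam1 replicate 1 and of 1.05 without A344 replicate 3. Depth limits what can be seen in all 22 families, least in MIR167.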
